A study of Mus musculus with 16 samples.

Results

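The genes described here lie on mouse chromosome 16 on both sides of Adipoq, the gene of the adipocyte hormone adiponectin, which is itself left out. They are Tbccd1, Fetub, Hrg, Kng2, Kng1, Eif4a2 and Rfc4 on one side and St6gal1, Masp1 and Rtp4 on the other, 10 of the 23420 genes in the count files. They were picked by name, with their differences between the genotype labels in both tissues already known. Those differences are therefore given as a description, with no test. The study counted polyadenylated RNA of 8 male C57BL/6 mice, each sampled once in adipocytes and once in liver. The groups were adipocytes of knockout-labelled mice, adipocytes of wild-type mice, liver of knockout-labelled mice and liver of wild-type mice, with 4 libraries each. The knockout-labelled mice were labelled as lacking Trib1, the gene of the pseudokinase tribbles 1, in adipocytes only, and no allele or agent is given for the wild-type mice. Mice KO-1137 and KO-1139 were 76 days old and KO-1151 and KO-1152 were 70 days old. Mice WT-1135, WT-1136 and WT-1138 were 76 days old and WT-1153 was 70 days old. The adipocytes came from subcutaneous fat digested with collagenase, and the liver was extracted whole.

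The labels name neither the driver of the deletion nor the deleted part of Trib1. Regulatory sequences of Adipoq are in wide use for directing Cre recombinase to fat cells, as background. DNA was not measured, so the copy number of this stretch of chromosome 16 in these mice is not known here. Trib1 did not separate the labels. In adipocytes it was at 1274.4 ± 146 CPM in knockout-labelled mice and 1048.6 ± 255 CPM in wild-type mice (CPM are counts scaled to a common library size, here with TMM factors; SD, n = 4 each; edgeR adjusted p = 0.241). In liver it was at 64.9 ± 16.3 CPM in knockout-labelled mice and 59.8 ± 8.89 CPM in wild-type mice (edgeR adjusted p = 0.875). The groups are therefore named by their labels throughout.

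As background, this part of the chromosome carries genes of secreted liver proteins beside genes that most cells use. Kininogens are plasma proteins built of cystatin domains around the peptide bradykinin, which kallikreins cut out to widen vessels and raise their permeability. Fetuin-B, encoded by Fetub, is another plasma protein of the cystatin superfamily, best known for blocking the egg protease ovastacin in mice. Hrg encodes histidine-rich glycoprotein, a plasma protein that binds heparin, plasminogen and metal ions. Eif4a2 encodes an RNA helicase that unwinds the leader of mRNAs during cap-dependent translation. Rfc4 encodes a subunit of the clamp loader of DNA replication. St6gal1 encodes an enzyme that caps N-glycans with sialic acid, and Masp1 encodes a serine protease of the lectin pathway of complement. Rtp4 encodes a receptor transporting protein that interferon induces, and Tbccd1 encodes a centrosome protein related to tubulin folding cofactors.

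On the build GRCm38 the 10 genes spanned 801 kb of chromosome 16, from 22813214 to 23614222, and Adipoq lay at 23146536 to 23158028 on the plus strand. The start of Tbccd1 was 288.9 kb before that of Adipoq, and Fetub (228.2 kb), Hrg (195.5 kb), Kng2 (117.1 kb), Kng1 (88.7 kb), Eif4a2 (39.1 kb) and Rfc4 (18.8 kb) came nearer in that order. On the far side St6gal1 started 78.2 kb after Adipoq, and the starts of Rtp4 and Masp1 lay at 373.8 and 374.3 kb. Some of these genes share bases. Eif4a2 and Rfc4 lie on opposite strands and their gene bodies overlap by 194 bases. Masp1 and Rtp4 lie on opposite strands and their gene bodies overlap by 525 bases. Transcripts of Eif4a2 and Rfc4 shared 145 stretches of 50 bases, and those of Masp1 and Rtp4 shared no such stretch. The labels do not state the strand setting of the counting. Reads from transcript bases shared by a pair therefore cannot be assigned to one gene.

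The libraries held 28560887 to 53716669 counts, with counts for 15279 to 16747 genes. Of all count values from 1 to 20, 77.9% were even, so low counts are not counts of single independent molecules. If counts were independent, a count of 0 would allow up to 3 counts, which is 0.0558 to 0.105 CPM. With mostly even counts the limit is higher than that, by an amount that was not tested. It covers counting error only. The adipocyte libraries carried their tissue's defining genes, with a summed 45372.2 to 51076.1 CPM of 12 adipocyte markers in knockout-labelled mice and 38409.6 to 54337.6 CPM in wild-type mice. The liver libraries held 138730.8 to 167480.6 CPM of 15 hepatocyte markers in knockout-labelled mice and 131399.6 to 161944 CPM in wild-type mice. Markers of other cells of fat moved with the genotype label in adipocytes, and their part in any of the lower values reported below for knockout-labelled adipocytes was not tested. Of all genes tested in adipocytes, edgeR called 18% higher and 17.1% lower. All 10 endothelial markers fell, their sum being 199 to 451 CPM in knockout-labelled mice and 711 to 2080.8 CPM in wild-type mice. Fibroblast markers fell for 8 of 10 genes (682 to 1234.2 CPM in knockout-labelled mice, 1518.6 to 1638.5 CPM in wild-type mice). Mural cell markers fell for 8 of 8 genes (104 to 171 CPM in knockout-labelled mice, 266 to 400 CPM in wild-type mice), of which limma-voom called 5. Lymphocyte markers fell for 4 of 10 genes (6 with DESeq2, 3 with limma-voom) and macrophage markers for 1 of 9 (edgeR, adjusted p under 0.05), and the lymphocyte calls on Cd4 and Cd3g were lost in most of the fits that left out 1 mouse. No marker of these lists was at 0 in all adipocyte libraries. In bulk RNA, fewer cells of a type and less RNA per cell cannot be told apart.

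Kng2 showed the widest separation of the genotype labels. In adipocytes of knockout-labelled mice it was at 13.7, 14.0, 13.1 and 14.1 CPM in the order KO-1137, KO-1139, KO-1151, KO-1152. In adipocytes of wild-type mice it was at 0.464, 0.0969, 0.414 and 0.439 CPM in the order WT-1135, WT-1136, WT-1138, WT-1153, and values below keep these orders. The raw counts behind these levels were 598, 673, 482 and 489 in knockout-labelled mice and 24, 4, 16 and 18 in wild-type mice. The knockout-labelled libraries lay close together and far above every wild-type library, 38.2-fold by the fitted means (log2 difference 5.26 ± 0.321, SE). That difference ranked 15 among the 13795 genes tested in adipocytes.

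Liver, where Kng2 is highly expressed, showed the same direction at a smaller ratio. Kng2 was at 423, 495, 458 and 488 CPM in liver of knockout-labelled mice and at 271, 308, 286 and 276 CPM in liver of wild-type mice. The groups did not overlap, and the log2 difference was 0.71 ± 0.0867 (SE; 1.63-fold). On the CPM scale the mean difference was wider in liver (466 ± 32.9 in knockout-labelled mice, 285 ± 16.6 in wild-type mice) than in adipocytes (13.7 ± 0.423 in knockout-labelled mice, 0.353 ± 0.172 in wild-type mice; SD, n = 4 each). Within the mice taken at 76 days the log2 difference of mean log2 CPM was 5.41 in adipocytes and 0.67 in liver. Within those taken at 70 days, with 1 wild-type mouse, it was 4.81 in adipocytes and 0.78 in liver.

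Kng1 separated the labels in liver and was near 0 in adipocytes of both labels. Liver levels were 4681.4, 5304.4, 5157.3 and 5102.1 CPM in knockout-labelled mice and 2453.9, 3129.6, 2676.1 and 2937.4 CPM in wild-type mice. Every knockout-labelled liver was above every wild-type liver, with a log2 difference of 0.85 ± 0.111 (SE; 1.81-fold). The difference was 0.80 within the 70-day mice and 0.86 within the 76-day mice. In adipocytes Kng1 had 4, 20, 0 and 6 counts in knockout-labelled mice and 4, 0, 0 and 38 counts in wild-type mice, and it did not reach the filter on low counts. The kininogens thus differed from each other in adipocytes, where Kng2 alone was well above its wild-type level.

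Kng1 and Kng2 are near copies of each other, so their sequences bear on how far their counts can be told apart. The starts of their longest open reading frames, taken from the GENCODE M21 transcripts of GRCm38, are shown to let the reader see where they part, with capitals marking bases that differ.
Kng1: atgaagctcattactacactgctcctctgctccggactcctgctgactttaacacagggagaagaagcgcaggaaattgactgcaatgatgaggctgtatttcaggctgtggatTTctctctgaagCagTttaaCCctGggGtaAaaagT
Kng2: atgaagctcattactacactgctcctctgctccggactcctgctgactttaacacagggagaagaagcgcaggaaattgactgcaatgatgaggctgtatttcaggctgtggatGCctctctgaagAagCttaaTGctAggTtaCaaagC
The 150 bases shown hold 10 differences, all near their end. Over 1932 aligned coding bases, 1792 were identical (92.8%). Of all stretches of 50 bases in their transcripts, 557 were shared, which is 17.2% of those of Kng1 and 19.4% of those of Kng2. Reads from shared stretches could have been dropped or split between the genes, since how reads with several matches were treated is not stated.

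The ratio of Kng1 to Kng2 counts was far lower in adipocytes of knockout-labelled mice than in any liver. In liver the ratio was 11.1, 10.7, 11.3 and 10.5 in knockout-labelled mice and 9.06, 10.1, 9.37 and 10.6 in wild-type mice. In adipocytes of knockout-labelled mice it was 0.00669, 0.0297, 0 and 0.0123. In adipocytes of wild-type mice, on few counts, it was 0.167, 0, 0 and 2.11. Genes of hepatocytes went different ways in the adipocyte libraries. Ahsg, the fetuin-A gene next to Fetub, was at 0.321, 0.705, 0.164 and 0.231 CPM in knockout-labelled mice and at 0.116, 0.145, 0.155 and 4.02 CPM in wild-type mice. Its knockout-labelled libraries were above 3 wild-type ones and below WT-1153. Alb, the albumin gene, was at 19.3, 29.8, 20.5 and 18.5 CPM in knockout-labelled mice and at 43.9, 68.2, 100 and 113 CPM in wild-type mice. The library of WT-1153 adipocytes held the most Ahsg, Ttr, Alb and Kng1 of the 8 adipocyte libraries, with 70 Ttr counts and 38 Kng1 counts, while its Kng2 level was within the range of the other wild-type libraries.

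The sum of 15 hepatocyte markers in adipocytes was 2390.5 to 4792.4 CPM in knockout-labelled mice and 2800.6 to 7991.7 CPM in wild-type mice. Most of it was Cyp2e1, at 3904.9 ± 1058.9 CPM in knockout-labelled mice and 5523.3 ± 2193.2 CPM in wild-type mice. With 18% of all genes called higher in adipocytes and 17.1% lower, 3 of the 8 hepatocyte markers tested rose and 1, Alb, fell. Those that rose were Fga, a fibrinogen chain gene (5.81 ± 1.84 CPM in knockout-labelled mice, 1.04 ± 0.805 CPM in wild-type mice; edgeR adjusted p = 0.00361), Serpina1a and Hpx. The part of RNA from hepatocytes in the Kng2 and Fetub levels of adipocytes was not tested beyond these values. The list of other kinin and contact system genes had 8 tested genes in adipocytes, of which 0 rose and 2 fell (edgeR; 2 had an unadjusted p under 0.05). The median log2 difference of these 8 was -0.37, against -0.01 for all genes, of which 17.1% were called lower. The 2 list genes that fell were Cpn2, a subunit of the kinin-trimming carboxypeptidase N (0.107 ± 0.0467 CPM in knockout-labelled mice, 0.556 ± 0.343 CPM in wild-type mice; edgeR adjusted p = 0.0115), and Ace. Cpn2 stayed under the 0.25 CPM cutoff of the filter on low counts in knockout-labelled mice. It passed through the wild-type libraries only, so its fall is not read as a result. Ace encodes angiotensin-converting enzyme, which degrades bradykinin, and was at 17.1 ± 14.5 CPM in knockout-labelled mice and 57.6 ± 32.7 CPM in wild-type mice (edgeR adjusted p = 0.0377). The call on Ace did not hold when any single mouse other than KO-1137 and WT-1153 was left out, where adjusted p was 0.0558 to 0.112. Ace is also made by endothelium, whose markers fell in these libraries, and the part of that shift in the Ace value was not tested.

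**Figure D1:**
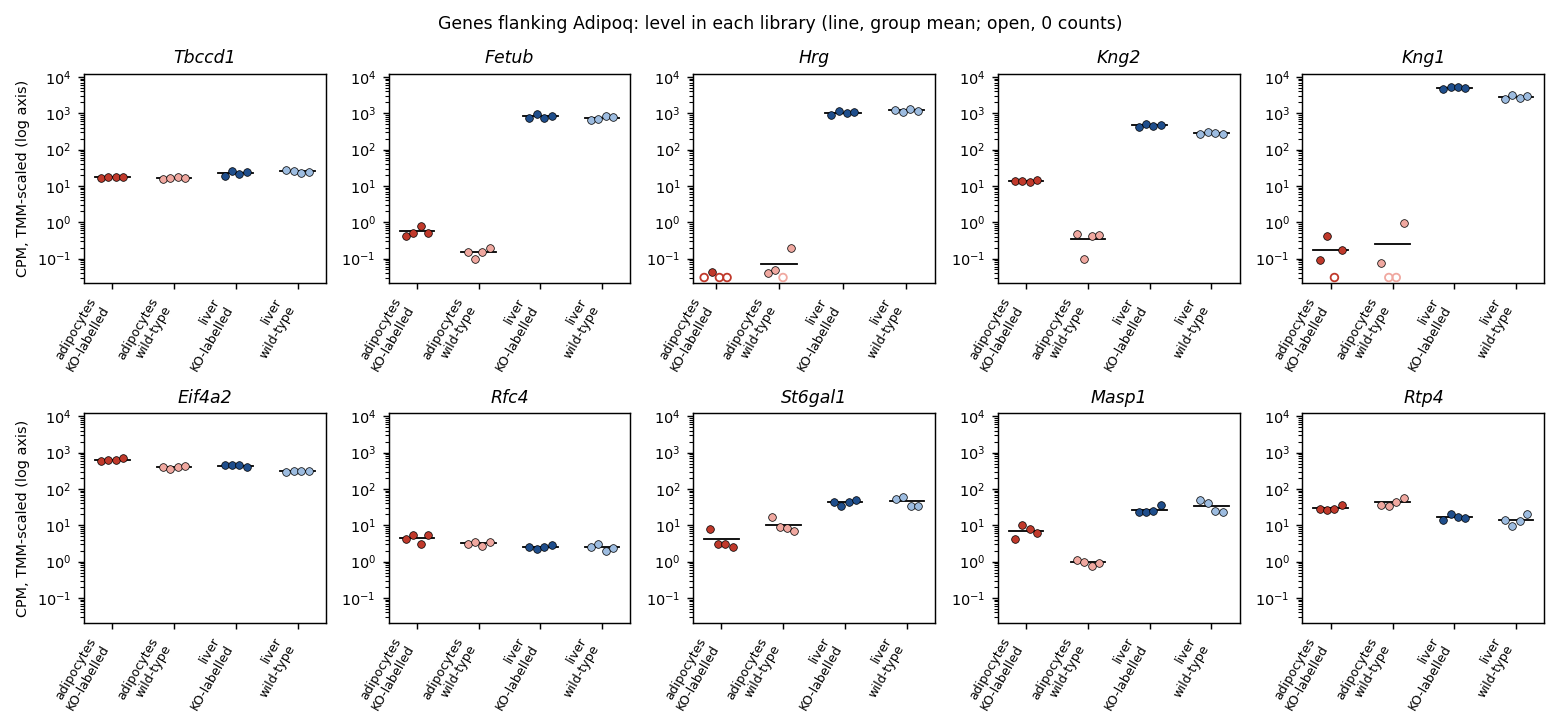
Level of each of the 10 genes in each library (vertical log axis, TMM-scaled CPM), with knockout-labelled before wild-type within each tissue; lines are group means over 4 libraries and open points are libraries with 0 counts. Kng2 in adipocytes was at 13.1 to 14.1 CPM in knockout-labelled mice and at 0.0969 to 0.464 CPM in wild-type mice.

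Eif4a2, with the start nearest to Adipoq among the genes that separated the labels, did so in both tissues. In adipocytes it was at 597, 635, 631 and 696 CPM in knockout-labelled mice and at 390, 363, 397 and 422 CPM in wild-type mice. Liver levels were 451, 456, 464 and 393 CPM in knockout-labelled mice and 294, 314, 316 and 319 CPM in wild-type mice. No library of one label reached into the range of the other in either tissue. The log2 difference was 0.70 ± 0.0882 in adipocytes (1.63-fold) and 0.51 ± 0.084 in liver (1.42-fold; SE, n = 4 each). It was 0.65 and 0.42 within the 70-day mice and 0.68 and 0.56 within the 76-day mice, adipocytes before liver.

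Relatives of Eif4a2 in cap-dependent initiation were followed as a list. In adipocytes 13 were tested, 5 rose and 0 fell, with a median log2 difference of 0.22 (edgeR; 7 had an unadjusted p under 0.05). Of all genes, 18% were called higher there. Pdcd4, which encodes an inhibitor of the eIF4A helicases, rose to 80.9 ± 5.63 CPM in knockout-labelled mice, against 55.1 ± 2.37 CPM in wild-type mice (edgeR adjusted p = 0.000738). Eif4e2, a cap-binding protein gene, rose to 59.4 ± 3.73 CPM in knockout-labelled mice, against 47.5 ± 0.834 CPM in wild-type mice (edgeR adjusted p = 0.00622). Scaled by library totals, the call on Eif4e2 was lost (log2 difference 0.13, edgeR adjusted p = 0.163).

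Rfc4, whose end overlaps that of Eif4a2, was scarce in all libraries. In adipocytes it was at 4.22, 5.52, 3.14 and 5.48 CPM in knockout-labelled mice and at 3.12, 3.49, 2.77 and 3.53 CPM in wild-type mice. KO-1151 lay within the wild-type range, so the groups overlapped (log2 difference 0.51 ± 0.207, SE). In liver Rfc4 was at 2.59, 2.24, 2.6 and 2.9 CPM in knockout-labelled mice and at 2.59, 3.05, 2.02 and 2.43 CPM in wild-type mice (log2 difference 0.04 ± 0.179). Of the 50-base stretches in Rfc4 transcripts, 145 (9.14%) also occur in those of Eif4a2, and the share of Rfc4 counts that came from Eif4a2 was not tested. Other clamp genes were tested as a list of 14 in adipocytes, of which 0 rose and 3 fell (edgeR; 4 had an unadjusted p under 0.05), a share near the 17.1% of all genes called lower. One of these was Lig1, the DNA ligase gene of replication, at 3.64 ± 0.353 CPM in knockout-labelled mice and 6.39 ± 1.18 CPM in wild-type mice (edgeR adjusted p = 0.00576).

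Fetub was a liver gene that appeared at a low level in adipocytes of knockout-labelled mice. There it had 18, 24, 29 and 18 counts, or 0.413, 0.498, 0.791 and 0.519 CPM, and adipocytes of wild-type mice had 8, 4, 6 and 8 counts, or 0.155, 0.0969, 0.155 and 0.195 CPM. The groups did not overlap, with a log2 difference of 1.86 ± 0.373 (SE; 3.62-fold). Fetub passed the filter on low counts only through the knockout-labelled libraries, of which 4 were above the cutoff of 0.25 CPM, against 0 wild-type libraries. Kng2 was above it in 4 knockout-labelled and 3 wild-type libraries and likewise needed the knockout-labelled ones to pass. Liver held 728, 934, 753 and 855 CPM in knockout-labelled mice and 636, 702, 829 and 789 CPM in wild-type mice, and the groups overlapped (log2 difference 0.15 ± 0.117). The level in adipocytes of knockout-labelled mice was thus a small trace beside that in liver.

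Hrg, between Fetub and Kng2, did not share this pattern. Its adipocyte counts were 0, 2, 0 and 0 in knockout-labelled mice and 2, 2, 0 and 8 in wild-type mice, too few for a fold change. In liver it was at 896, 1116.5, 1019.7 and 1092.9 CPM in knockout-labelled mice and at 1259.9, 1100.3, 1332.3 and 1166.1 CPM in wild-type mice. The liver groups overlapped by a narrow margin, with knockout-labelled mice at the lower end (log2 difference -0.24 ± 0.105, SE). EdgeR called 17.1% of all genes lower in adipocytes. Of 4 other cystatins tested there, 0 rose and 1 fell (2 had an unadjusted p under 0.05). This was Cst3, the cystatin C gene, at 343 ± 34.8 CPM in knockout-labelled mice and 501 ± 13.5 CPM in wild-type mice (edgeR adjusted p = 0.00242).

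The promoters of Kng2, Eif4a2 and Fetub are shown because these genes were higher in adipocytes of knockout-labelled mice and RefSeq holds an entry for them. Each runs from 250 bases before to 50 bases after the start on GRCm38.p6, and capitals mark matches to searched motifs on either strand.
Kng2, chr16:23029052-23029351, minus strand: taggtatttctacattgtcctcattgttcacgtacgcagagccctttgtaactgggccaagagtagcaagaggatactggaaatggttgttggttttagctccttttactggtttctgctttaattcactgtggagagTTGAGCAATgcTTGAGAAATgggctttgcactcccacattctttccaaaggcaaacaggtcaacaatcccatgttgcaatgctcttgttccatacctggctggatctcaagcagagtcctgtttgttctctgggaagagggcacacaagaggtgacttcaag
Eif4a2, chr16:23107218-23107517, plus strand: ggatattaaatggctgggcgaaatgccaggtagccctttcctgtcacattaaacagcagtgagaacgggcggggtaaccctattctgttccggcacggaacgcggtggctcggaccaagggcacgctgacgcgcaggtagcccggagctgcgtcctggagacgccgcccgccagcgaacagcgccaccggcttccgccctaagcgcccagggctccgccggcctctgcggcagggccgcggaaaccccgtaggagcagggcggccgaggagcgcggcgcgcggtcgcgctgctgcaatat
Fetub, chr16:22918132-22918431, plus strand: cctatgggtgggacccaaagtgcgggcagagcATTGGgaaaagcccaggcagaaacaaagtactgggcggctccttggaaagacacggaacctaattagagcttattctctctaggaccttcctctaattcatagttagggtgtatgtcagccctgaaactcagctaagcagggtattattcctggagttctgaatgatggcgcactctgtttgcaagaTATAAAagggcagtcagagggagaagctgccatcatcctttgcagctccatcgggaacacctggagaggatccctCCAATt
The Eif4a2 window had 67.7% G and C with 36 CpG dinucleotides, against 45.3% and 2 for Kng2 and 49.7% and 5 for Fetub. The motifs searched were TATAAA, found in 13.6% of 32851 mouse promoters, CCAAT (37.4%), GTTAAT, an HNF1 half-site (7.1%), and TTNNGNAAT, a loose C/EBP site (11.5%). Kng2 had the last of these at -112 and at -101 from its start. Fetub had TATAAA at -31 and CCAAT at -218 and at 45, and its second listed start, not shown, had no match. Eif4a2 and Rfc4 had no match to any of these letters. The loose C/EBP letters also occurred at -245 and -134 in Hrg and at -40 and -81 in the second and the third listed starts of St6gal1. No matches overlapped. The table held 6 of the 10 genes, and Tbccd1, Kng1, Masp1 and Rtp4 had no entry.

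Masp1 was higher in adipocytes of knockout-labelled mice, on the other side of Adipoq. It was at 4.26, 9.87, 7.96 and 6.06 CPM in knockout-labelled mice and at 1.14, 0.945, 0.776 and 0.926 CPM in wild-type mice. The lowest knockout-labelled library stood well above the highest wild-type one, with a log2 difference of 2.89 ± 0.279 (SE; 7.39-fold). In liver the picture differed, with 23.0, 23.1, 25.1 and 35.8 CPM in knockout-labelled mice and 48.1, 41.6, 25.5 and 23.7 CPM in wild-type mice. The liver groups overlapped. The log2 difference was 0.34 within the 70-day mice, with 1 wild-type mouse, and -0.69 within the 76-day mice. The liver of WT-1138, taken at 76 days, was at 25.5 CPM, close to the 23.7 CPM of WT-1153, taken at 70 days. Of 7 other genes of the lectin pathway tested in adipocytes, 1 rose and 4 fell, with a median log2 difference of -0.28, where 18% of all genes were called higher and 17.1% lower. The list gene that rose was C3, at 2817.5 ± 431 CPM in knockout-labelled mice and 1554.6 ± 334 CPM in wild-type mice (edgeR adjusted p = 0.00634). C1ra, a complement protease gene, was at 26.5 ± 5.73 CPM in knockout-labelled mice and 65.6 ± 10 CPM in wild-type mice (edgeR adjusted p = 0.000767). C4b, a complement component gene, was at 891 ± 181 CPM in knockout-labelled mice and 1969.2 ± 461 CPM in wild-type mice (edgeR adjusted p = 0.00304). Fibroblast markers fell in the same libraries, and their part in the C1ra and C4b values was not tested.

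St6gal1 had a lower mean in adipocytes of knockout-labelled mice (4.11 ± 2.41 CPM) than in those of wild-type mice (10.2 ± 4.22 CPM; SD, n = 4 each). It was at 7.7, 3.11, 3.05 and 2.57 CPM in knockout-labelled mice and at 16.4, 8.69, 8.48 and 7.14 CPM in wild-type mice. KO-1137 stood above the other knockout-labelled libraries and within the wild-type range, so the groups overlapped (log2 difference -1.31 ± 0.387, SE). The difference was -1.80 without KO-1137 and -0.99 without WT-1135. Liver levels of St6gal1 were 43.6, 34.8, 42.5 and 49.6 CPM in knockout-labelled mice and 54.0, 59.8, 34.5 and 33.0 CPM in wild-type mice, again with overlap (log2 difference -0.09 ± 0.192).

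Other sialyltransferases moved in both directions in adipocytes, where 4 rose and 6 fell of 13 tested. Among all genes 18% were called higher and 17.1% lower. St3gal6 rose to 190 ± 45.8 CPM in knockout-labelled mice, against 66.5 ± 8.9 CPM in wild-type mice (edgeR adjusted p = 0.000469). St3gal2 rose to 45.3 ± 4.53 CPM in knockout-labelled mice, against 22.6 ± 4.33 CPM in wild-type mice (edgeR adjusted p = 0.000921). Both attach sialic acid in a different linkage from that made by St6gal1. The median log2 difference of the 13 was -0.63, below 0 while the genes with the smallest p rose.

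Rtp4 had a lower mean in adipocytes of knockout-labelled mice, with overlap. It was at 28.4, 25.9, 27.4 and 35.9 CPM in knockout-labelled mice and at 35.9, 33.3, 43.1 and 57.5 CPM in wild-type mice (log2 difference -0.53 ± 0.174, SE). Liver levels of Rtp4 were 14.0, 19.9, 16.5 and 15.6 CPM in knockout-labelled mice and 13.6, 9.76, 13.2 and 20 CPM in wild-type mice (log2 difference 0.22 ± 0.193). Of 25 other interferon-stimulated genes tested in adipocytes, 0 rose and 17 fell (edgeR; 18 had an unadjusted p under 0.05), with a median log2 difference of -0.93. Of all genes, 17.1% were called lower there. Ifi27l2a, an interferon-induced gene, fell to 309 ± 80.5 CPM in knockout-labelled mice, against 1392.7 ± 163 CPM in wild-type mice (edgeR adjusted p = 9.86e-05). Mx2, an antiviral GTPase gene, fell to 11.9 ± 1.68 CPM in knockout-labelled mice, against 61.3 ± 21.9 CPM in wild-type mice (edgeR adjusted p = 0.000206). The markers of endothelial, fibroblast and mural cells fell in the same libraries, and their part in these values was not tested. Of the other receptor transporting proteins, Rtp3 alone was tested, and it fell to 2.73 ± 0.681 CPM in knockout-labelled mice, against 7.62 ± 3.35 CPM in wild-type mice (edgeR adjusted p = 0.00748).

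Tbccd1, farthest from Adipoq on its side, was nearly level across labels. In adipocytes it was at 16.5, 17.6, 17.6 and 17.6 CPM in knockout-labelled mice and at 15.1, 16.1, 17.8 and 16.4 CPM in wild-type mice (log2 difference 0.09 ± 0.0835, SE). Liver levels of Tbccd1 were 18.9, 25.1, 21.3 and 23.8 CPM in knockout-labelled mice and 27.6, 25.2, 23.1 and 24.2 CPM in wild-type mice (log2 difference -0.17 ± 0.105). The groups overlapped in both tissues. Of all genes tested in adipocytes, edgeR called 18% higher. Among 6 tubulin folding cofactors tested there, 1 rose, a share near that, and 0 fell (1 had an unadjusted p under 0.05). This was Tbcd, at 43.4 ± 3.47 CPM in knockout-labelled mice and 36.6 ± 2.08 CPM in wild-type mice (edgeR adjusted p = 0.0417), a call that was lost in most alternatives, with library totals among them (log2 difference 0.05, edgeR adjusted p = 0.634).

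**Figure D2:**
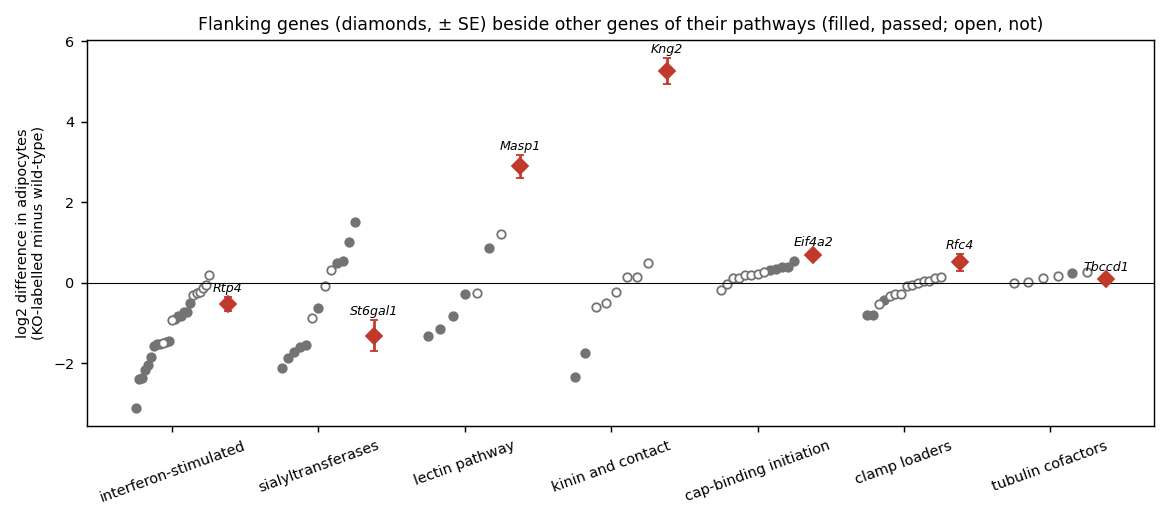
Log2 difference in adipocytes, knockout-labelled minus wild-type (vertical axis), of the flanking genes (diamonds, bars are SE) beside the other genes of their pathways (points, filled where they passed edgeR's test). Kng2 stood at 5.26 above a kinin list with a median of -0.37, and Rtp4 at -0.53 beside interferon genes with a median of -0.93.

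Counted over the set, 4 of the 8 genes that passed the filter in adipocytes were higher in every knockout-labelled library than in any wild-type one, and 0 were lower. Of all genes tested in adipocytes, 18.7% were higher and 15.2% were lower by the same count, and edgeR called 18% higher and 17.1% lower. In liver, 3 of the 10 tested were higher without overlap and 0 were lower, where 2.36% of all genes were higher and 2.3% were lower. Since both contrasts chose the genes, nothing is read from these counts. The median log2 difference of the set was 0.605 in adipocytes and 0.0917 in liver, against -0.011 and 8.14e-05 for all genes tested. In liver edgeR called 3 genes higher (0.0226% of 13288) and 0 lower, with 1146 at an unadjusted p under 0.05. DESeq2 called 53 higher and 49 lower there, and limma-voom called 3 and 0. These counts are given for the background only.

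The knockout-labelled and wild-type mice were compared in both tissues of the same animals, so the liver and adipocyte values of a gene are not independent. Of 12320 genes tested in both tissues, 63 (0.511%) were higher without overlap in both and 28 were lower in both. Kng2 and Eif4a2 were the 2 of the set's 8 testable genes among the 63. Both contrasts chose the genes, so nothing is read from this count either. Kng1 could not be placed, since adipocytes had almost no counts of it.

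In liver the genes of the set that were higher without overlap, Kng2, Kng1 and Eif4a2, were consecutive within the set. In adipocytes they were Fetub, Kng2, Eif4a2 and Masp1. Between these lay Hrg and Kng1, with too few adipocyte counts to be placed, and Rfc4 and St6gal1, whose groups overlapped. From the left end, Tbccd1 was level in both tissues and Fetub was higher in adipocytes. Hrg overlapped between labels in liver and had too few adipocyte counts to be placed there. Kng2, Kng1 and Eif4a2 were higher in at least 1 tissue. Rfc4, next to Adipoq, overlapped between labels. Adipoq itself was at 4730.9 ± 235 CPM in adipocytes of knockout-labelled mice and 3571.6 ± 593 CPM in those of wild-type mice. Its groups did not overlap there (4469.4 to 5028.1 CPM in knockout-labelled mice, 2735.4 to 4093.2 CPM in wild-type mice). The log2 difference of 0.41 ± 0.146 did not pass edgeR's test (adjusted p = 0.0548). Adipoq passed with DESeq2 (adjusted p = 0.00911) and limma-voom (adjusted p = 0.0431). In liver Adipoq had 0, 0, 14 and 0 counts in knockout-labelled mice and 10, 4, 90 and 2 counts in wild-type mice. Past Adipoq, in adipocytes of knockout-labelled mice, Masp1 was higher, and the means of St6gal1 and Rtp4 were lower with overlap.

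Of the annotated genes with any part within 1 Mb of Adipoq, the files hold 13 others. In adipocytes 7 of them were tested, 1 rose and 0 fell (edgeR; 1 had an unadjusted p under 0.05, and DESeq2 and limma-voom called the same numbers), where 18% of all genes were called higher. This was Igf2bp2, an RNA-binding protein gene, at 20.2, 16.2, 19.8 and 20 CPM in knockout-labelled mice and at 8.77, 7.73, 8.95 and 13.7 CPM in wild-type mice (log2 difference 0.96 ± 0.176, edgeR adjusted p = 0.00353). The median log2 difference of the 7 was 0.07. In liver 8 were tested and 0 were called by edgeR, DESeq2 or limma-voom, with 1 at an unadjusted p under 0.05. This was Snora81, a small nucleolar RNA gene inside Eif4a2, at 1.98 ± 0.194 CPM in knockout-labelled mice and 1.04 ± 0.33 CPM in wild-type mice (log2 difference 0.92 ± 0.242, edgeR adjusted p = 0.369). Its liver groups did not overlap. Poly-A selected libraries hold little RNA of this kind. Snora81 lies on the same strand as Eif4a2, so strand cannot tell its reads from those of its host transcript, and the counts hold no fragment lengths. Ahsg, the liver gene beside Fetub, was at 11792.1 ± 965 CPM in liver of knockout-labelled mice and 11754.6 ± 1042.9 CPM in liver of wild-type mice. Dnajb11, which lies head to head with Tbccd1, differed by -0.01 ± 0.0839 in adipocytes and 0.12 ± 0.072 in liver on the log2 scale. Its groups overlapped in adipocytes and did not overlap in liver.

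**Figure D3:**
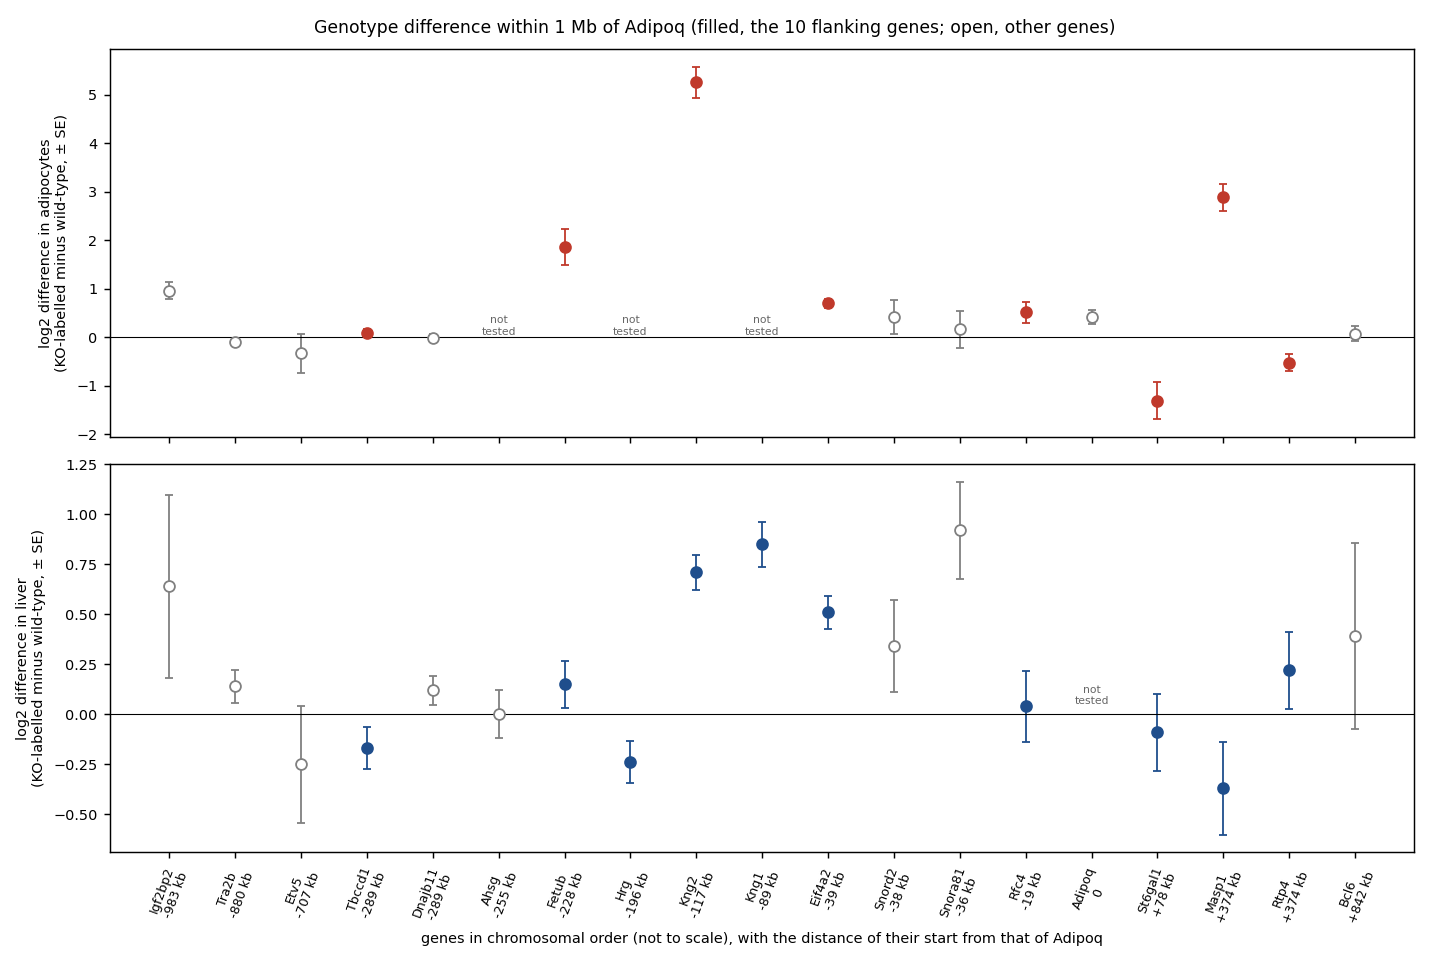
Log2 difference, knockout-labelled minus wild-type (vertical axis, bars are SE), of the genes within 1 Mb of Adipoq in chromosomal order, adipocytes above and liver below; filled points are the 10 flanking genes and open points the others. Kng2 reached 5.26 in adipocytes, while Kng1 (0.85), Kng2 (0.71) and Eif4a2 (0.51) stood above most others in liver.

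The one contrast that did not choose the genes was that between the tissues of wild-type mice. Values of this contrast were scaled over the 8 wild-type libraries together and so differ a little from those above. Fetub, Hrg, Kng1 and Kng2 were above the filter's cutoff of 0.263 CPM in 0, 0, 1 and 3 of the 4 adipocyte libraries and passed it through liver only, so they had to differ and are given with no test. Of the other 6 genes, 1 was higher in adipocytes than in liver and 3 were lower (edgeR, adjusted p under 0.05), where 40.5% of all genes were higher, 37.2% lower and 77.6% either. The plasma protein genes made up the far end. Kng1 was at 0.214 ± 0.386 CPM in adipocytes and 3479 ± 356 CPM in liver (SD, n = 4 each; log2 difference -14.00 ± 0.912, SE). Hrg was at 0.0602 ± 0.0731 CPM in adipocytes and 1510.1 ± 127 CPM in liver (log2 difference -14.56 ± 0.433). Both fitted differences rest on a few adipocyte counts, most of them in WT-1153, and without that mouse they were -16.87 for Kng1 and -15.70 for Hrg.

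Fetub was at 0.128 ± 0.0345 CPM in adipocytes and 919 ± 105 CPM in liver (log2 difference -12.77 ± 0.238). Kng2 was at 0.302 ± 0.147 CPM in adipocytes and 354 ± 18.2 CPM in liver (log2 difference -10.17 ± 0.29). Among the genes with a test, Masp1 was at 0.809 ± 0.127 CPM in adipocytes and 43.1 ± 15 CPM in liver (log2 difference -5.72 ± 0.281; edgeR adjusted p = 1.12e-08). The other genes with a test had smaller gaps than Masp1. St6gal1 was lower in adipocytes by 2.69 ± 0.29 on the log2 scale (8.7 ± 3.59 CPM in adipocytes, 56.3 ± 16.8 CPM in liver; edgeR adjusted p = 7.31e-06). Tbccd1 was lower by 1.16 ± 0.0996 (14 ± 0.968 CPM in adipocytes, 31.1 ± 2.59 CPM in liver; edgeR adjusted p = 1.16e-06).

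Rtp4 was higher in adipocytes, with 36.2 ± 9.28 CPM in adipocytes and 17.6 ± 5.43 CPM in liver (log2 difference 1.04 ± 0.228; edgeR adjusted p = 0.00159). Eif4a2 was at 336 ± 20.7 CPM in adipocytes and 386 ± 12.6 CPM in liver and did not pass (log2 difference -0.20 ± 0.105; edgeR adjusted p = 0.101). Its sign depended on the scaling, since library totals alone gave 0.45 (edgeR adjusted p = 0.00199), and that scaling moved the median of all genes by 0.651. DESeq2 (log2 difference -0.23, adjusted p = 0.011) and edgeR on all 16 libraries (-0.20, adjusted p = 0.0498) called it lower. Rfc4 did not pass either (log2 difference -0.19 ± 0.201; edgeR adjusted p = 0.413), and its sign also turned with library totals, at 0.46. Kng2 in adipocytes of knockout-labelled mice, at 13.7 ± 0.423 CPM, remained far under its level of 285 ± 16.6 CPM in liver of wild-type mice, though these are scaled in separate fits.

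**Figure D4:**
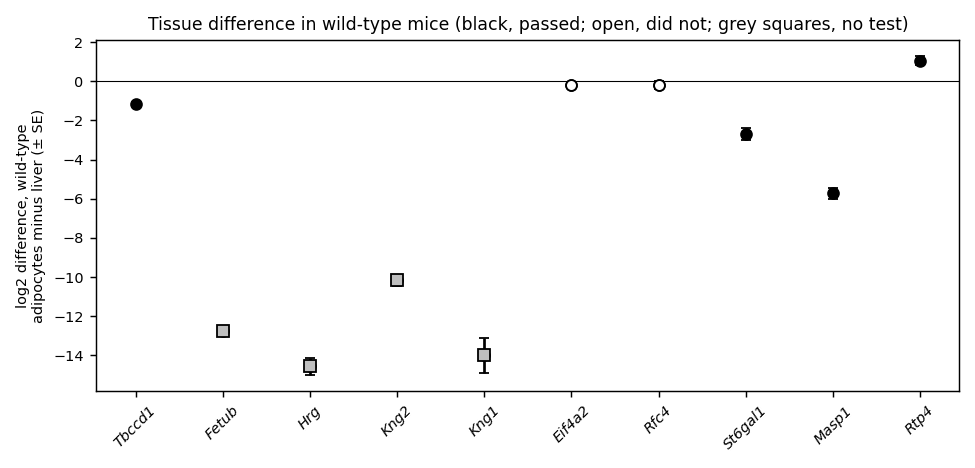
Log2 difference of the 10 genes in wild-type mice, adipocytes minus liver (vertical axis, bars are SE). Black points passed edgeR's test, open points did not, and the 4 grey squares, which passed the filter through liver only, have no test; values ran from -14.56 for Hrg to 1.04 for Rtp4.

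Per length, the order of the genes differed between tissues. Levels here are RPKM, the scaled CPM divided by the annotated exon length in kilobases. In adipocytes of knockout-labelled mice Eif4a2 led with 120 ± 7.76, then Rtp4 with 13.8 ± 2.09 and Kng2 with 5.02 ± 0.155, each clear of the next. Rfc4 (2.99) and Tbccd1 (2.5) overlapped, as did St6gal1 (0.836) and Masp1 (0.716), and Fetub (0.283), Kng1 (0.0523) and Hrg (0.0052) came last. In adipocytes of wild-type mice Eif4a2 (73.7) and Rtp4 (19.9) again came first. Tbccd1, Rfc4 and St6gal1, at 2.36, 2.1 and 2.07, could not be put in order there, and Kng2 stood below them at 0.129, overlapping the next gene, Masp1, at 0.0963. Kng2 was thus in the third place in adipocytes of knockout-labelled mice and the sixth in those of wild-type mice.

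In liver of both labels Kng1 led, with 1557.3 RPKM in knockout-labelled mice and 861 RPKM in wild-type mice. Hrg came next, with 517 RPKM in knockout-labelled mice, where it overlapped Fetub at 417, and 609 RPKM in wild-type mice, where Fetub stood clear of it at 377. Kng2 followed with 170 RPKM in knockout-labelled mice and 104 RPKM in wild-type mice, and Eif4a2 with 82.6 RPKM in knockout-labelled mice and 58.2 RPKM in wild-type mice. Rfc4 was last in liver of both labels, at 1.68 RPKM in knockout-labelled mice and 1.65 RPKM in wild-type mice.

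Likeness between genes was taken as Pearson's r of log2 CPM over the 16 libraries after each tissue's mean was removed, among genes of at least 1 CPM in each tissue. It is a description, since the libraries share mice, labels and depth. The genes of the set were compared even where they were below this level, as Fetub was in adipocytes. Within the set, Kng2 was most like Fetub (r = 0.946), Masp1 (r = 0.896) and Eif4a2 (r = 0.859). Among all genes, Kng2 came nearest to Tmem56 (r = 0.971), Map7 (r = 0.971) and App (r = 0.970). Eif4a2 came nearest to Zfp949 (r = 0.937), a zinc finger gene on chromosome 9. Masp1 came nearest to Acadvl (r = 0.968), a fatty acid oxidation gene, St6gal1 to Atp8b1 (r = 0.982) and Rtp4 to Ikbip (r = 0.894). Rfc4 came nearest to Klhdc2 (r = 0.888) and Tbccd1 to Srpk2 (r = 0.892), with lower r than the rest. St6gal1 ran opposite to Fetub (r = -0.802) and to Kng2 (r = -0.707).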

How the data were processed

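The authors deposited one table of raw read counts per library, by gene symbol and not normalized, for 16 libraries. The genome build mm10 and the tools STAR 2.5.2b, featureCounts 1.5.0 and bcl2fastq 2.17 are named per the submitters' processing notes. Annotation, strand setting and treatment of multiply matching reads: not given in the sources used here. Libraries were grouped by the labels' tissue and genotype.

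From these counts, edgeR 4.0.16 (R 4.3.3) gave quasi-likelihood tests with TMM scaling, filterByExpr by group, and two-sided Benjamini-Hochberg adjusted p under 0.05 over all genes tested. Contrasts were fitted separately on their own 8 libraries: wild-type adipocytes against wild-type liver, and, for either tissue, knockout-labelled against wild-type. The steps were checked on simulated counts. TMM factors were 0.786 to 1.36 in the first, 0.898 to 1.16 in adipocytes and 0.97 to 1.03 in liver. The median SE was 0.169, 0.138 and 0.137 (log2). Within-age differences use log2(CPM + 0.05). Replicates are separate mice by number.

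The genes and lists were chosen with earlier results of these data known. Named genes are the 10, Trib1, Adipoq, the other genes within 1 Mb, the 2 list members with the smallest p in adipocytes and the 3 closest patterns per gene. Coordinates and transcripts are from GENCODE M21, and promoters from RefSeq. Sequences were read with Biopython 1.88 in Python 3.11.15. A number marks 1 mouse per the labels; deviations of its pair of libraries correlated at -0.111 to 0.184 over 10680 genes. Alternatives were other scalings, DESeq2 1.42.0, limma-voom (limma 3.58.1), no filter, halved counts, all 16 libraries, mouse as a block, age, and leaving out each mouse.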

Additional observations from a re-analysis of the deposited data

Results flagged for a closer look

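Within groups of 4 libraries, 7 of 40 sets of values held a library far from the other 3, by Dixon's 95% critical value. Its chance rate of about 1 in 20 is for normally distributed values. Some sets here rested on few and mostly even counts, so the 7 are not set against that rate. St6gal1 had such a library in both adipocyte groups, with 7.7 CPM in KO-1137 against 2.57 to 3.11 CPM in the other knockout-labelled libraries, and 16.4 CPM in WT-1135 against 7.14 to 8.69 CPM in the other wild-type libraries. Kng2 was at 0.0969 CPM in adipocytes of WT-1136, against 0.414 to 0.464 CPM in the other wild-type libraries. Kng1 was at 0.926 CPM in adipocytes of WT-1153, against 0 to 0.0774 CPM, in a library that also held the most Ahsg counts. Hrg was at 0.0415 CPM in adipocytes of KO-1139, on 2 counts, against 0 in the others. Masp1 was at 35.8 CPM in liver of KO-1152, against 23 to 25.1 CPM. Tbccd1 was at 16.5 CPM in adipocytes of KO-1137, against 17.6 CPM in the other libraries, a small gap in absolute terms.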

How the results depend on the processing

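In the contrast of wild-type tissues, 1 of the 10 genes was called higher and 7 lower in adipocytes, with 4 of the 7 kept through liver only, and these numbers held without each mouse in turn, where 5361 to 5576 genes of all were higher and 4910 to 5259 lower. With mouse as a replicate block they were also 1 and 7, with 5598 genes higher and 5161 lower. DESeq2 and the fit of all 16 libraries called 8 lower, Eif4a2 being the added one. Scaled by library totals, 2 of the 10 were higher and 3064 genes were lower, and Eif4a2 (0.45) and Eif4e2 (0.28) turned sign. That scaling moved the share of higher calls to 73.4%, against 52.2%.

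In adipocytes library totals gave 1293 genes higher and 3899 lower (24.9% higher, against 51.3%), moved the median of all genes by -0.194 and moved Eif4a2 to 0.51 and Tbccd1 to -0.11. The 76-day mice alone gave 832 and 898, and leaving out each mouse gave 1832 to 2556 higher and 1721 to 2740 lower. Over all 17 alternatives Kng2 stayed between 4.96 and 5.43, Masp1 between 2.67 and 3.07 and Eif4a2 between 0.51 and 0.74, and Fetub, kept by the filter in 16 of them, between 1.65 and 2. With the 76-day mice alone the calls on Cpn2, Cst3, Eif4e2, Lig1, Ace and Tbcd were lost (edgeR adjusted p = 0.161, 0.0801, 0.148, 0.0755, 0.0952 and 0.156), as were those on Pold1 and the markers Dpt, Acta2, Cd4 and Cd3g.

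In liver DESeq2 gave 53 genes higher and 49 lower. No filter, the fit of all 16 libraries and age as a covariate each gave 1 lower, the 76-day mice alone gave 0 higher, and leaving out each mouse gave 1 to 3 higher and 0 to 1 lower. Kng1 stayed between 0.80 and 0.91, Kng2 between 0.67 and 0.75 and Eif4a2 between 0.48 and 0.56. The cause of these shifts was not tested.

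Low counts were mostly even, which limits Fetub, Hrg and Kng1 in adipocytes most. Gene totals do not tell which copy, allele or transcript form gave the reads, and 2 ages and few mice limit the within-age values.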

Other observations

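The pathway lists were also tested between the tissues of wild-type mice, where 77.6% of all genes passed. Of 13 kinin and contact genes, 3 were higher in adipocytes and 10 lower. Among these, Ace was at 49.2 ± 27.9 CPM in adipocytes and 0.748 ± 0.154 CPM in liver (SD, n = 4 each; edgeR adjusted p = 4.14e-07), and Cpn2 was at 0.475 ± 0.293 CPM in adipocytes and 395 ± 93.4 CPM in liver (edgeR adjusted p = 2.49e-09). Of 11 lectin pathway genes, 0 were higher in adipocytes and 10 were lower (edgeR; 10 had an unadjusted p under 0.05). Some genes of both lists passed the filter through liver only and had to be lower. Among them were Cpn1 and F11, at 0.0165 and 0.0393 CPM in adipocytes, and Mbl1, Mbl2 and Colec10, at 0.0215, 0.0208 and 0.0104 CPM. Xpnpep2, at 0 CPM in liver, passed through adipocytes only. No result is therefore read from the counts of these lists. Sialyltransferases went both ways, with 7 of 13 higher in adipocytes and 4 lower, and St3gal6 at 56.8 ± 7.63 CPM in adipocytes and 3.19 ± 1.35 CPM in liver (edgeR adjusted p = 7.73e-08). St6galnac5 and St8sia6, at 0.0535 and 0.0357 CPM in liver, passed the filter through adipocytes only and had to be higher. Of 25 interferon-stimulated genes, 15 were higher in adipocytes and 7 lower, the direction of the 15 being that of Rtp4. Ifi27l2a was at 1189.1 ± 139 CPM in adipocytes and 5.54 ± 1.67 CPM in liver (edgeR adjusted p = 6.65e-10).

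In liver the genotype labels moved none of these lists past the test. Of 95 pathway genes tested there, edgeR called 0, DESeq2 0 and limma-voom 0, with 10 at an unadjusted p under 0.05, while in adipocytes 11 of 91 rose and 34 fell, where 18% of all genes were called higher and 17.1% lower.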
